A study of Mus musculus with 6 samples.

Results

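The comparison was between CD45+ cells of liver micrometastasis and CD45+ cells of the adjacent liver tissue, both at day 3 after injection of control (Ctrl) 4T07 cells. Cells were chosen by the library code in their barcodes, and genes by being present as single-gene features in the matrices of both sites. This gave 5106 cells of the micrometastasis and 1803 cells of the adjacent tissue, 6909 of the 23008 cells in the 6 libraries of the series. The other 4 libraries came from mice with Tim3-KD cells, or from macrometastasis, and are used only where named.

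4T07 is a tumour line from a mammary tumour of Balb/c mice, and Ctrl cells carried a non-targeting vector. They were injected into the left ventricle of immunocompetent Balb/c mice. A piece of liver with a side of 5 mm was digested with collagenase, and CD45+ cells were sorted and loaded on a droplet 3' RNA platform with molecular identifiers (UMIs). Micrometastases were found by bioluminescence of the excised liver, and the adjacent tissue is described as healthy liver next to them. Each library was a pool of 2 mice. Both groups therefore came from livers of mice with Ctrl tumour cells, and neither was liver of a mouse without tumour cells. Site, pool and library cannot be told apart, because each group had 1 library.

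The liver holds resident macrophages (Kupffer cells) in its sinusoids, where they take up particles and produce complement C1q. Neutrophils and monocytes enter from the blood and come from bone marrow precursors. During their maturation neutrophils make azurophil granule proteins first, such as elastase, then proteins of secondary granules, such as lactoferrin. Monocytes that enter a damaged or inflamed liver can take on macrophage genes there.

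With 1 library per group there was no spread between replicates, so no test was made and no difference has a p-value. Levels are CPM, the UMIs of a gene in every 1000000 UMIs of all genes, recovered from the deposited scaled scores. Intervals are exact 95% intervals for counting error only, and they say nothing of the spread between mice. A gene was compared where both libraries together held at least 100 UMIs. It was called at a ratio of at least 2, or at 0.5 or lower. A lower number of cells of a type and less RNA per cell cannot be told apart in values over a whole library.

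The adjacent tissue library held 30619779 UMIs, with a median of 8964 per cell, and the micrometastasis library 55971527, with a median of 7531. Cells under 3000 UMIs made up 2.77% and 8.83% of the cells. Of the UMIs, 8.18% and 10.5% lay in the 2255 genes present in both matrices, so the results cover these genes only. The libraries shared 2 cell barcodes. All 14 Kupffer markers, all 12 B markers and 13 of 15 T markers were in both matrices and had UMIs in both libraries. None of 6 epithelial or tumour markers was in both matrices. Endothelial cells, which the CD45 sort should remove, were present, with a summed level of their 11 measured markers of 34.9 CPM in adjacent tissue and 146 CPM in micrometastasis. The 4 hepatocyte markers measured summed to 98.9 and 176 CPM, and the 2 erythroid markers to 45.3 and 88.9 CPM. The part of these cells and of free RNA in the results was not tested.

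Cells were put into classes by clustering and by marker genes, and the names are written as X-like. Both Ctrl libraries were mostly myeloid. Mature neutrophil-like cells were the most frequent class, at 31.8% (29.6 to 34.0) of adjacent tissue cells and 29.1% (27.9 to 30.4) of micrometastasis cells. Neutrophil precursor-like cells had a lower share in micrometastasis, 10.4% (9.59 to 11.3) against 19.1% (17.3 to 21.0). Monocyte-like cells had a higher share there, 22.2% (21.1 to 23.4) against 15.3% (13.6 to 17). That direction rested on cluster 6, led by Ccl24, Spp1 and Trem2 with no monocyte marker among its 10 leading genes. Without it the share was 11% (10.2 to 11.9) of micrometastasis cells and 12.9% (11.4 to 14.6) of adjacent tissue cells. The share of mature neutrophil-like cells also turned without 1 cluster, cluster 7, to 9.1% of adjacent tissue and 23.9% of micrometastasis cells. Kupffer-like cells were 1.72% of adjacent tissue cells (31 cells) and 5.39% of micrometastasis cells (275 cells). B-like cells were 14.4% and 12.7%. T-like cells were 9.93% and 8.40%, and NK or ILC1-like cells 1.72% and 3.53%. Without cells under 3000 UMIs the NK or ILC1-like difference was 0.587 in place of 1.81 percentage points. Endothelial-like cells were 2 of the 1803 adjacent tissue cells and 78 of the 5106 micrometastasis cells. Each share is of all sorted cells, so a higher share of one class lowers the others.

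**Figure D1:**
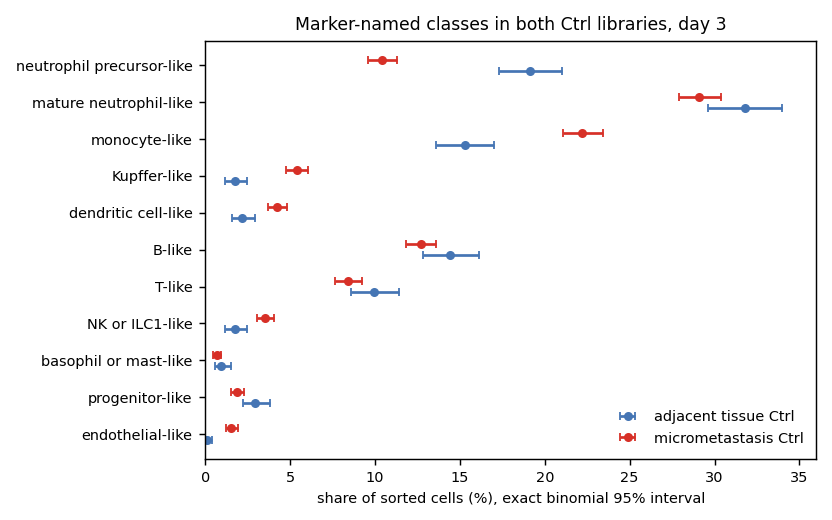
Share of sorted cells in each marker-named class (x axis, percent) in adjacent tissue Ctrl and micrometastasis Ctrl, 1 library each; points are shares and bars exact binomial 95% intervals. The precursor-like share is 19.1% against 10.4%, and the Kupffer-like share 1.72% against 5.39%.

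Inside the neutrophil-like, monocyte-like and T-like classes the make-up by cluster also differed between the sites. In adjacent tissue, 71.4% of mature neutrophil-like cells lay in cluster 7, which led with Acod1, Csf1 and Rsad2. In micrometastasis that cluster held 18.0% of the class, and cluster 1, led by Saa3 and Il1b, held 37.5% against 5.41%. Il1b was also among the 10 leading genes of cluster 7, and Csf1 among those of cluster 1. Among monocyte-like cells, cluster 6 held 15.3% in adjacent tissue and 50.4% in micrometastasis. Cluster 10, led by Ass1, F13a1 and the replication gene Pclaf, held 31.6% and 6.97%. Of T-like cells, cluster 16, with Cd8b1, held 3.35% and 21.9%. Precursor-like cluster 12, with the azurophil genes Ctsg, Mpo and Elane, held 3.78% and 13.7%. Other classes were closer, with 74.1% and 77.2% of B-like cells in cluster 4 and 71% and 77.1% of Kupffer-like cells in cluster 8. Cluster sizes depend on the genes used for clustering, so for some of the genes and lists below the values are also given within single clusters that had at least 50 cells in each library.

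Over the whole library, genes of resident macrophages, complement and sinusoidal endothelium were higher in micrometastasis, and few genes were lower. Of 2250 genes compared, 284 (12.6%) were at least 2-fold higher and 4 (0.178%) were at 0.5 or lower. The trimmed mean of the log2 ratios over all genes was 0.30 rather than 0, and taking it as the centre left 191 higher and 16 lower. The genes with UMIs in all matrices are a choice of variable genes, so these shares describe that choice.

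Of the 10 genes of highest ratio, 8 had most of their micrometastasis UMIs in the 78 endothelial-like cells, with 89.1% to 96.3% each. Clec4g, a C-type lectin of liver sinusoidal endothelium (GRCm38, chromosome 8, 3707064 to 3720651), was at 1.27 CPM in adjacent tissue and 26.1 CPM in micrometastasis, a ratio of 20.5 (14.9 to 28.9). Ptprb, an endothelial receptor phosphatase, was at 1.05 and 17.3 CPM, and Aqp1, a water channel, at 0.980 and 13.2 CPM. F8, the gene of coagulation factor VIII, was at 0.327 and 5.16 CPM. Meis2, a homeobox gene, had only 2 UMIs in adjacent tissue, so its ratio of 36.9 had an interval of 10.0 to 308. Cyp4b1, a cytochrome P450 gene, had 3, with a ratio of 25 (8.37 to 123). Oit3 and Adgrf5 were at 0.229 and 0.261 CPM in adjacent tissue and at 4.47 and 4.00 CPM in micrometastasis. The scores of these genes were capped in 18 to 40 micrometastasis cells, so their micrometastasis levels are lower bounds. All 8 go with the presence of a cell type that the sort should have removed, in the numbers given above.

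The remaining 2 of the 10 were macrophage genes. Marco, a scavenger receptor (chromosome 1, 120474538 to 120505024), was at 2.55 CPM in adjacent tissue and 38.2 CPM in micrometastasis, a ratio of 15 (12.0 to 19.0), with scores capped in 2 adjacent tissue cells. Kupffer-like cells held at least 98% of its UMIs in each library. Within these cells its level was 207 CPM in adjacent tissue (31 cells, 78 UMIs) and 846 CPM in micrometastasis (275 cells). Through the capped scores the adjacent tissue level is a lower bound, so the gap within the class may be smaller than these values show. The share of the class differed as well. Dab2, an adaptor of endocytosis, was at 1.93 and 25.6 CPM, a ratio of 13.3 (10.3 to 17.6). In micrometastasis, 43.0% of its UMIs were in Kupffer-like and 40.9% in monocyte-like cells.

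Other Kupffer genes differed in both directions within the class. Clec4f, the lectin that defines the cell type in mice, was at 6873 CPM in adjacent tissue and 5546 CPM in micrometastasis. Cd5l, a secreted scavenger protein, was at 6092 and 5031 CPM, Vsig4, a complement receptor, at 2401 and 2280 CPM, and C1qa at 7703 and 8245 CPM. The phosphatidylserine receptor gene Timd4 was at 792 and 600 CPM, and the chemokine gene Ccl24 at 1266 and 2008 CPM. Hmox1, haem oxygenase, was at 888 and 1733 CPM, Stab1, a scavenger receptor, at 13.3 and 36 CPM, and Dab2 at 87.8 and 249 CPM. Lower in micrometastasis were the folate receptor gene Folr2, at 1032 and 662 CPM, and the MHC class II genes H2-Aa, at 5001 and 2017 CPM, and H2-Ab1, at 3728 and 1588 CPM. With 31 cells in adjacent tissue, this class was below the 100 cells set for a comparison across genes.

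By list, the Kupffer scavenging and iron genes had 18 of 20 members at least 2-fold higher over the whole library and none lower, with a median log2 ratio of 1.77 beside 0.30 for all genes compared. An example is Clec4f, at 85.8 and 249.6 CPM. The complement list had 9 of 10 higher, with a median of 1.76, among them C1qa at 98.7 and 434 CPM. Of 15 chemokine genes 9 were higher, with a median of 1.19. Ccl24 was at 26.5 CPM in adjacent tissue and 327 CPM in micrometastasis, a ratio of 12.4 (11.5 to 13.3), and Ccl2, which attracts monocytes, was at 48.3 and 111 CPM. Of the acute phase and stefin genes 4 of 7 were higher: Saa3, at 99.9 and 639 CPM, and the stefins Stfa2, Stfa2l1 and Stfa3. Of 15 inflammatory cytokine genes 5 were higher, among them Il1b at 667 and 1610 CPM. None of 31 genes of the type I interferon list was called in either direction, with a median of 0.21, and none of 11 mitosis genes, with a median of -0.39. With the mix of classes made equal, 2 of the 20 Kupffer genes and none of the 10 complement genes were called.

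The 4 genes at 0.5 or lower were Art2a, Ass1, Cdk5r1 and Ltf. Art2a, an ADP-ribosyltransferase gene, was at 12.7 CPM in adjacent tissue and 5.02 CPM in micrometastasis. Its scores were capped in 12 micrometastasis cells and in no adjacent tissue cell, so its micrometastasis level is a lower bound and no order was read from it. Ass1, of arginine synthesis, was at 80.5 and 34.9 CPM. Cdk5r1, an activator of a neuronal kinase, was at 8.79 and 4.20 CPM, with 1 capped micrometastasis cell. Ltf, the gene of lactoferrin (chromosome 9, 111019271 to 111042767), was at 2683 and 1324 CPM with 97.6% and 89.9% of its UMIs in the precursor-like class. Ly6g, the neutrophil surface marker, was just inside the limit, at 465 and 240 CPM.

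To see how far the mix of classes carried these ratios, adjacent tissue cells were weighted to the class mix of the micrometastasis over 10 classes. Under that weighting 87 genes were higher and 15 lower, and 71 of the 284 genes were still called. Of the 284, 259 kept their direction and 25 turned below 1. In the Kupffer list 2 of 20 genes stayed at 2-fold, Marco and Stab1, and the median was 0.28 in place of 1.77. Clec4f went from 1.54 to -0.19, Cd5l from 1.57 to -0.16, Folr2 from 1.22 to -0.50 and Stab2 from 2.24 to -0.63. No complement gene stayed at 2-fold, and the median of that list was 0.25. Of the chemokine genes Ccl24 and Cxcl3 were past 2-fold, and of the acute phase and stefin list 5 of 7, with a median of 1.54. The log2 ratio of Marco was 3.90 before and 2.16 after weighting, that of Dab2 3.72 and 2.42, and that of Clec4g 4.34 and 1.76. Ltf went from -1.02 to -0.27 and Ly6g from -0.96 to -0.31. Ass1 went from -1.21 to -1.67, and the monocyte marker gene Ly6c2 from -0.93 to -1.36. The endothelial-like class was left out of the weighting on both sides, since it had 2 adjacent tissue cells, so the weighted values of its genes come from the remaining cells. This holds also for Stab2 of the Kupffer list. Of its 504 micrometastasis UMIs, 372 lay in endothelial-like and 112 in Kupffer-like cells. The counts within single classes follow.

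**Figure D2:**
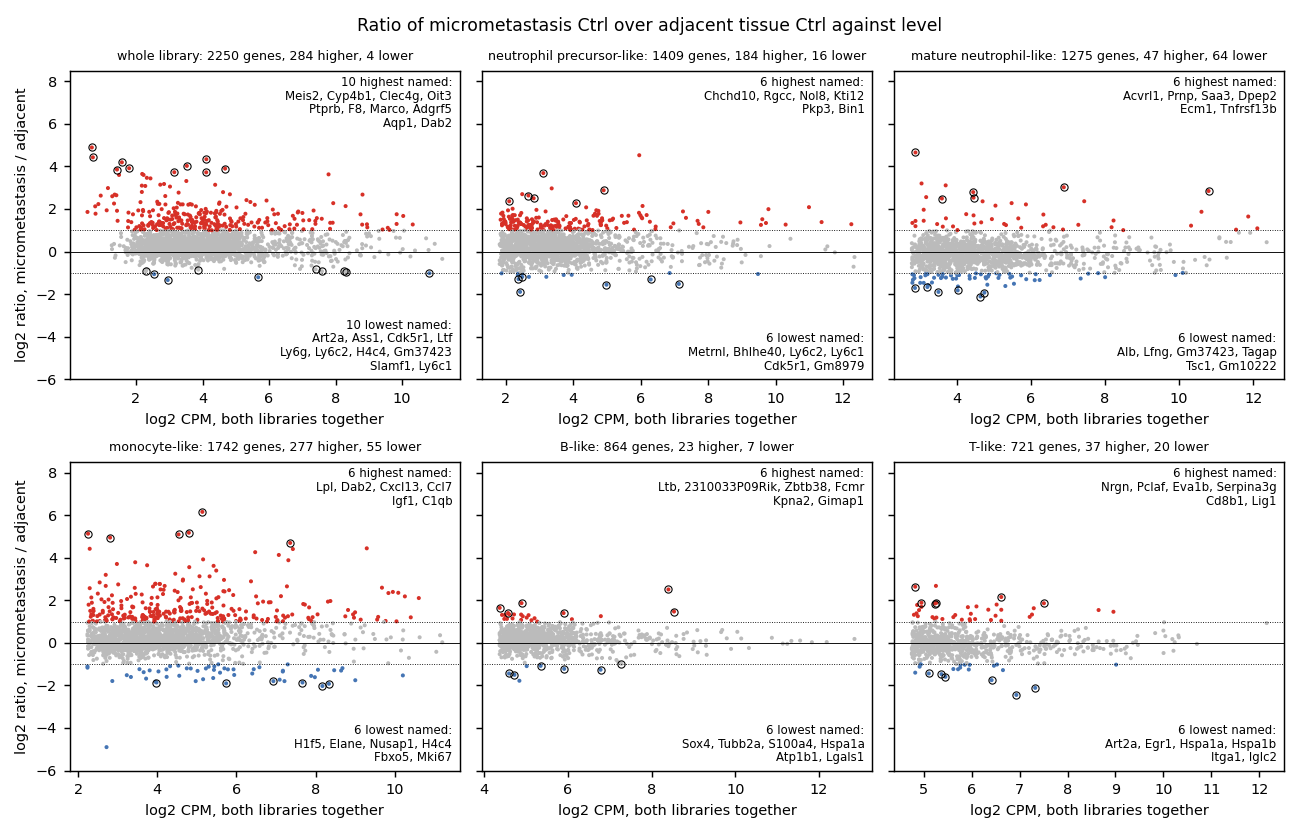
Log2 ratio of micrometastasis Ctrl over adjacent tissue Ctrl (y axis) against the log2 level over both libraries (x axis), 1 point per gene compared, over the whole library and within the 5 classes with at least 100 cells in each library; dashed lines mark the 2-fold limits. Over the whole library 284 genes lie above and 4 below the limits, and in mature neutrophil-like cells 47 above and 64 below.

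Neutrophil precursor-like cells (344 in adjacent tissue and 532 in micrometastasis) had higher azurophil granule genes in micrometastasis, and Ly6g, Ly6c1 and Ly6c2 were lower. Of 1409 genes compared, 184 (13.1%) were at least 2-fold higher and 16 (1.14%) at 0.5 or lower. The trimmed mean of the log2 ratios was 0.26, and with it as the centre the counts were 109 higher and 57 lower. Clustering of the Ctrl libraries alone gave 93 higher and 8 lower, and there a cluster led by Ctsg and Mpo, with 89 and 181 cells, took no class name.

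Of the 7 azurophil granule genes, 6 were at least 2-fold higher, with a median log2 ratio of 1.38. Elane, neutrophil elastase (chromosome 10, 79886247 to 79888215), was at 1364 CPM in adjacent tissue and 3560 CPM in micrometastasis, a ratio of 2.61 (2.57 to 2.66). Prtn3, proteinase 3, its neighbour at 79874476 to 79883174, was at 2653 and 6461 CPM. Mpo, the gene of myeloperoxidase, was at 694 and 1669 CPM. Ctsg, cathepsin G, had the widest gap, at 707 and 3001 CPM, a ratio of 4.24 (4.15 to 4.34). Ms4a3, a membrane gene of granulocyte and monocyte progenitors, was at 375 and 1073 CPM. The member that was not called, the elastase inhibitor gene Serpinb1a, was at 1069 and 1620 CPM. The class was not the same mix at both sites. In cluster 5, which holds cycling precursors with Fcnb and Cebpe, 4 of the 7 were called, with a median of 1.04, and Ctsg was at 274 and 1226 CPM. In cluster 3, led by Ly6g and Ltf, only 3 had enough UMIs, none was called, and Prtn3 was at 88.7 and 122 CPM.

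Of 9 secondary and tertiary granule genes, Ly6g was the 1 called, lower at 1015 and 488 CPM, and the median was -0.50. Ltf was at 6543 and 3993 CPM, and Cd177, a surface protein stored in the same granules, at 822 and 707 CPM. Chil3, a chitinase-like protein, was at 811 and 969 CPM. Within cluster 3 none of the 9 was called, with Ly6g at 1564 and 1251 CPM and a list median of 0.08. Within cluster 5 Ly6g was again the 1 called, with a list median of -0.17.

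The stefins, cystatin-type inhibitors of cysteine proteases that lie together on chromosome 16, were higher in the same cells. Stfa2 (36403992 to 36408457) was at 445 and 1127 CPM, Stfa2l1 (36156811 to 36161953) at 421 and 1002 CPM, and Stfa3 (36450537 to 36455392) at 260 and 670 CPM. These genes are near-identical copies, so the split of reads among them is uncertain. In cluster 3, Stfa2 was at 750 and 3203 CPM and Stfa3 at 400 and 2096 CPM. In cluster 5, Stfa3 was at 161 and 182 CPM.

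Among genes whose level in the class was at least 25% of that of the library, the highest ratios were of low genes. Free RNA was not measured, and its part in these low levels was not tested. Chchd10, a mitochondrial protein gene, was at 1.06 and 14.2 CPM, a ratio of 13.3 (7.65 to 25.4), while B-like cells had 50.4 and 70.0 CPM. Rgcc, a regulator of the cell cycle, was at 6.36 and 47.1 CPM. Nol8, Kti12, Pkp3 and Bin1 had ratios of 4.87 to 6.34. Better measured genes included Mif, a cytokine, at 102 and 370 CPM, Dut, which keeps uracil out of DNA, at 59.6 and 220 CPM, and the mitochondrial chaperone Hspd1 at 75.3 and 226 CPM. Mki67, a marker of cycling cells, was at 173 and 195 CPM, and none of 11 mitosis genes was called.

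At the low end, Metrnl, a secreted protein, was at 9.22 CPM in adjacent tissue and 2.46 CPM in micrometastasis, and the transcription factor gene Bhlhe40 at 51.1 and 17.3 CPM. Ly6c2 was at 224 and 78.0 CPM and its near-identical copy Ly6c1 at 120 and 48.2 CPM. In the thinned data, where each cell was reduced to 1500 UMIs, 31.4% of the class had a Ly6c2 UMI in adjacent tissue and 12.0% in micrometastasis, beside 1.54% and 0.926% of B-like cells, in which the gene is not expected. The median depth before thinning was 32074 and 28611 UMIs in the precursor-like class, and 5144 and 3482 in B-like cells. Bhlhe40 and Ly6c2 were at 0.5 or lower in cluster 3 (ratios of 0.358 and 0.456) and in cluster 5 (0.442 and 0.409).

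**Figure D3:**
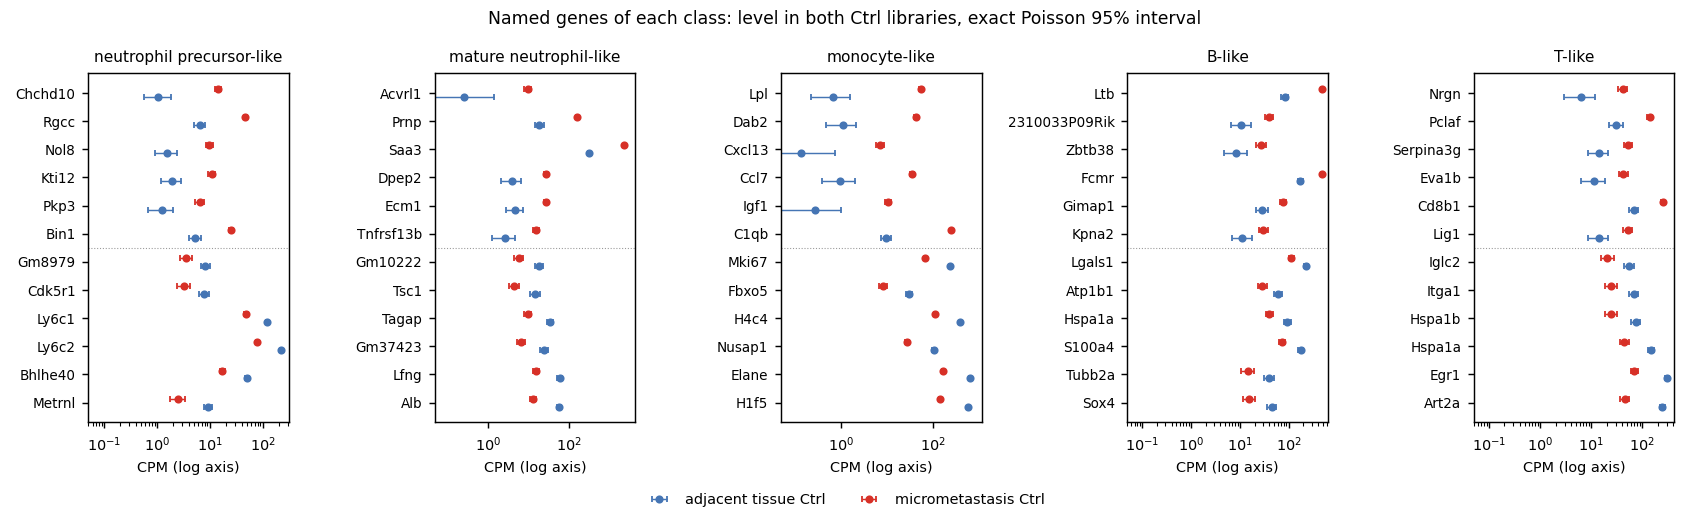
Level in CPM (log axis) of the 12 genes at both ends of the ratios in each of the 5 classes, in adjacent tissue Ctrl and micrometastasis Ctrl; bars are exact Poisson 95% intervals. In mature neutrophil-like cells Saa3 is at 319 and 2290 CPM, and in monocyte-like cells Lpl is at 0.680 and 53.2 CPM.

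In mature neutrophil-like cells (573 and 1486) the acute phase gene Saa3, the stefin genes Stfa2 and Stfa3, and Prnp were higher in micrometastasis, and Cd274, Rsad2 and Lfng lower. Of 1275 genes compared, 47 (3.69%) were at least 2-fold higher and 64 (5.02%) at 0.5 or lower. With the trimmed mean of -0.11 as the centre, the counts were 62 higher and 42 lower. The counts also turn on cluster 7, which held most of the adjacent tissue cells. Without it 122 genes were higher and 12 lower.

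Saa3, serum amyloid A3 (chromosome 7, 46711998 to 46715700), is made by activated myeloid cells. It was at 319 CPM in adjacent tissue and 2290 CPM in micrometastasis, a ratio of 7.19 (6.79 to 7.62). After thinning, 6.98% and 28.5% of the cells had a Saa3 UMI, beside 0.386% and 0.772% of B-like cells. The median depth of the class before thinning was 5001 and 5736.5 UMIs. In cluster 0 it was at 13.4 and 1462 CPM, and in cluster 7 at 313 and 951 CPM, so the difference was present within both. Prnp, the prion protein gene (chromosome 2, 131909928 to 131938429), was at 18.8 and 154 CPM, a ratio of 8.17 (6.45 to 10.5) with scores capped in 2 adjacent tissue cells, and with 3.14% and 20.7% of thinned cells, beside 0.772% and 0.309% of B-like cells. Its level was 7.20 and 158 CPM in cluster 0, and 14.1 and 98.3 CPM in cluster 7. Dpep2, a leukotriene-cleaving dipeptidase, was at 3.92 and 28.0 CPM. Ecm1, an extracellular matrix protein gene, was at 4.70 and 27.9 CPM, and Tnfrsf13b, a receptor better known from B cells, at 2.61 and 15.4 CPM. Acvrl1, a receptor of the TGF-beta family, had 1 UMI in adjacent tissue and 106 in micrometastasis, a ratio of 37.6 (6.60 to 1499).

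Of the acute phase and stefin list, 3 of 7 members were called higher, Saa3, Stfa2 and Stfa3, and the median log2 ratio was 0.99. Stfa2 was at 1449 and 4532 CPM, Stfa3 at 525 and 1918 CPM, and Stfa2l1 at 2382 and 4388 CPM. Of 9 secondary and tertiary granule genes 2 were called, both higher, and the median was 0.45. Mmp8, neutrophil collagenase, was at 647 and 1502 CPM, with 33.2% and 73.1% of thinned cells beside 0.772% and 0.309% of B-like cells, and Chil3 was at 42.6 and 220 CPM. Within cluster 0, 1 of the 9 was called, 5 were below a ratio of 1 and the median was -0.44, while in cluster 7 the median was 0.31. Cxcr2, the receptor for neutrophil-attracting chemokines, was at 848 and 883 CPM, a ratio of 1.04 (1.00 to 1.08). Csf3r, the receptor of the growth factor G-CSF, was at 1408 and 1005 CPM.

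Inflammatory cytokine genes did not share 1 direction, and none of 11 was called. Il1b (chromosome 2, 129364570 to 129371139) was at 4168 CPM in adjacent tissue and 5645 CPM in micrometastasis, a ratio of 1.36 (1.33 to 1.38). Tnf was at 128 and 69.8 CPM, and Csf1, a growth factor for macrophages, at 453 and 264 CPM. Acod1, the enzyme that makes itaconate, was at 1840 and 922 CPM, a ratio of 0.501 (0.486 to 0.517), just above the limit. Of 9 chemokine genes 2 were higher and 1 lower, 8 had a ratio above 1, and the median was 0.66. Cxcl3 was at 51.5 and 114 CPM and Ccl24 at 1.83 and 11.5 CPM, while Ccl3 was at 358.5 and 177 CPM. The chemokine median was 1.07 in cluster 0 and 1.17 in cluster 7, where Ccl3 was at 523 and 710 CPM. Within cluster 7, Il1b was at 5910 and 9881 CPM and Acod1 at 2464 and 1923 CPM, a smaller gap than over the class.

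The checkpoint ligand gene Cd274 (PD-L1, chromosome 19, 29367455 to 29388095) was lower in micrometastasis, at 89.4 and 31.3 CPM, a ratio of 0.351 (0.301 to 0.409). Within cluster 7 it was at 127 and 87.9 CPM, a ratio of 0.693 (0.567 to 0.844) that did not pass the limit. In cluster 0 it was at 34.0 and 11.5 CPM, with too few UMIs for a call. It is also induced by interferon gamma, and it was the 1 of 13 members of that list called, with a list median of -0.55. None of that list was called in cluster 0, with a median of 0.19, or in cluster 7, with a median of -0.45. Of 25 genes of the type I interferon list, 3 were at 0.5 or lower and none was higher, with a median of -0.47. Rsad2, the antiviral protein viperin, was at 285 and 118.5 CPM, Ifit3b at 34.0 and 15.4 CPM with scores capped in 1 and 3 cells, and Ifi27l2a at 1735 and 865 CPM. Isg15 was at 1089 and 598 CPM. The list was not lower in every cluster. Its median was 0.12 in cluster 0 and -0.33 in cluster 7, where 2 of 22 members were called higher.

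Other genes of low ratio were Lfng, a glycosyltransferase of Notch receptors, at 58.8 and 15.4 CPM, and Tagap, a GTPase-activating protein gene, at 34.5 and 9.73 CPM. Lfng was also low within clusters 0 and 7, with ratios of 0.232 and 0.420. Alb, albumin of hepatocytes, was at 57.5 and 13.3 CPM in these cells, while over the whole library its log2 ratio was -0.55. Its part in the other ratios of this class was not tested. Of 27 immediate early and stress genes 2 were higher and 3 lower, with a median of -0.28. Jun was at 29.5 and 98.9 CPM, and Atf3 at 440 and 191 CPM. Within clusters none was called lower and 3 were called higher in each, of 19 in cluster 0 and of 24 in cluster 7, with medians of 0.09 and 0.39.

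**Figure D4:**
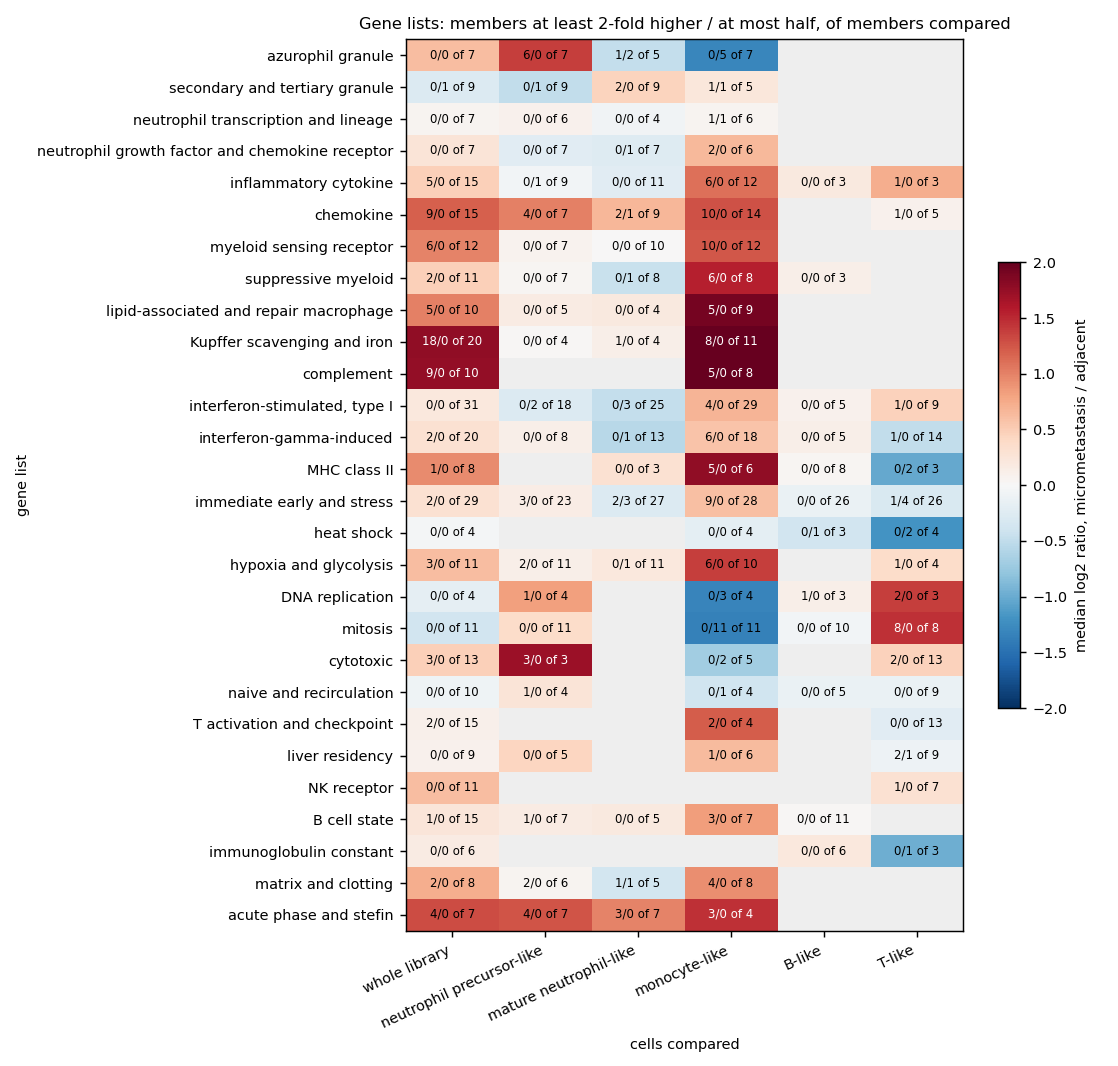
Members at least 2-fold higher / at 0.5 or lower, of the members compared, for each gene list (y axis) over the whole library and in the 5 classes (x axis); colour is the median log2 ratio. In monocyte-like cells the mitosis list reads 0 higher and 11 lower of 11, and in T-like cells 8 higher and 0 lower of 8.

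Monocyte-like cells (275 and 1134) had the highest share of called genes among the 5 classes. Macrophage, complement, chemokine and MHC class II genes were higher in micrometastasis, and cell cycle and azurophil granule genes lower. Of 1742 genes compared, 277 (15.9%) were at least 2-fold higher and 55 (3.16%) at 0.5 or lower. With the trimmed mean of 0.29 as the centre, the counts were 177 and 80. Cluster 6 was named by 9 markers at 2-fold. Leaving it out gave 109 genes higher and 22 lower.

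Lpl, lipoprotein lipase (chromosome 8, 68880491 to 68907448), had the highest ratio. It was at 0.680 CPM in adjacent tissue and 53.2 CPM in micrometastasis, a ratio of 78.2 (33.4 to 242), and 0% and 4.76% of thinned cells had a UMI, beside 0% in B-like cells of both libraries. The median depth of the class before thinning was 17998 and 10567 UMIs. Of the lipid-associated macrophage genes 5 of 9 were higher, with a median log2 ratio of 1.91. Trem2, a lipid receptor, was at 41.3 and 155 CPM, and Spp1, the gene of osteopontin, at 41.6 and 190.5 CPM. Dab2 was at 1.09 and 41.7 CPM. Igf1, a growth factor, had 2 UMIs in adjacent tissue, and its ratio was 38.4 (10.4 to 320).

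Complement C1q genes lie side by side on chromosome 4, between 136880129 and 136898803. C1qb was at 9.38 and 245 CPM, a ratio of 26.1 (20.5 to 33.6), and C1qa at 12.0 and 255 CPM. In the complement list 5 of 8 were higher, with a median of 2.19, and in the Kupffer list 8 of 11, with a median of 2.04. The Kupffer-defining gene Clec4f, counted among the 8, was at 2.58 and 6.18 CPM. B-like cells, where none of these genes is expected, also had higher values in micrometastasis, with Clec4f at 0.566 and 11.6 CPM, C1qa at 1.13 and 16.1 CPM, and C1qb at 1.70 and 14.4 CPM. The level of Clec4f was therefore no higher than this background in micrometastasis, while those of C1qa and C1qb were above it at both sites. The part of this background in the list counts was not tested. Axl, a receptor for apoptotic cells, was at 3.26 and 31.6 CPM.

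Chemokine genes were called in 10 of 14 cases, all higher, with a median of 1.28. Ccl24, which attracts eosinophils (chromosome 5, 135569937 to 135573049), was at 42.8 and 932 CPM, a ratio of 21.8 (19.5 to 24.4), with 8% and 27.1% of thinned cells, beside 0% and 0.463% of B-like cells. Ccl7, which attracts monocytes, was at 0.952 and 34.8 CPM. Cxcl13, which attracts B cells, had 1 UMI in adjacent tissue and 100 in micrometastasis, a ratio of 52.2 (9.16 to 2083), and 0.529% of the micrometastasis cells had one, 0.265% after thinning, beside 0.154% of B-like cells. Ccl2 was at 132 and 334 CPM.

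Of 12 inflammatory cytokine genes 6 were higher, with a median of 1.10. Il1b was at 261 and 1370 CPM, a ratio of 5.25 (5.01 to 5.51), and 26.2% and 64.4% of thinned cells had a UMI, beside 2.32% and 3.24% of B-like cells. In T-like cells, where the gene is not expected, Il1b was at 8.42 and 55.9 CPM, with 0.559% and 3.73% of thinned cells. Its antagonist Il1rn was at 9.38 and 73.3 CPM, and Hbegf, a ligand of the EGF receptor, at 3.40 and 52.5 CPM. Of 8 suppressive myeloid genes 6 were higher, with a median of 1.55. They included Mrc1, at 6.12 and 65.1 CPM, Vegfa, at 25.2 and 76.3 CPM, and Havcr2, the gene of TIM3, at 8.84 and 39.1 CPM. Sensing receptor genes were higher in 10 of 12 cases, with Cd14, the co-receptor for bacterial lipopolysaccharide, at 633 and 1275 CPM. MHC class II genes were higher in 5 of 6 cases. H2-Aa was at 492 and 2116 CPM and H2-Ab1 at 368 and 1668 CPM. Of 29 type I interferon genes 4 were called higher, a share no greater than the 15.9% of all genes compared in these cells. Within cluster 2, 1 of 23 was called and the median was 0.05.

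All 11 mitosis genes were lower, with a median of -1.35, beside 3.16% of all genes compared. Mki67 was at 230 CPM in adjacent tissue and 66.0 CPM in micrometastasis, and Top2a at 279 and 80.2 CPM. The histone genes H1f5 and H4c4, which are used in S phase, were at 572 and 140 CPM and at 388.5 and 107 CPM. Of the 7 azurophil genes 5 were lower, with Elane at 627 and 165 CPM and Mpo at 954 and 282 CPM. The share of the class in cluster 10, where these genes are highest, was 31.6% and 6.97%.

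Within single clusters most of these gaps were smaller. In cluster 10 (87 and 79 cells) none of 11 mitosis genes was called, with a median of 0.10, and none of 7 azurophil genes, with a median of 0.25. In cluster 2 (146 and 483 cells), led by Thbs1, Vcan and Ccr2, none of 5 MHC class II genes was called, with a median of -0.15. None of 3 complement genes was called there, with a median of 0.10, and 1 of 5 Kupffer genes, with a median of 0.61. Of 9 chemokine genes 2 were higher and 1 lower, and of 9 inflammatory cytokine genes 3 were higher. H2-Aa was at 194.5 and 175 CPM, and Ccl24 at 78.5 and 121 CPM. Other genes kept a gap within cluster 2. Il1b was at 416 and 1502 CPM and Chil3 at 330 and 2371 CPM. Hbegf was at 5.49 and 19.5 CPM, and Ccl7 at 1.57 and 12.3 CPM. Of the 1070 genes compared in cluster 2, 51 were higher and 6 lower. Cluster 6 had 42 adjacent tissue cells, too few for the same comparison.

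**Figure D5:**
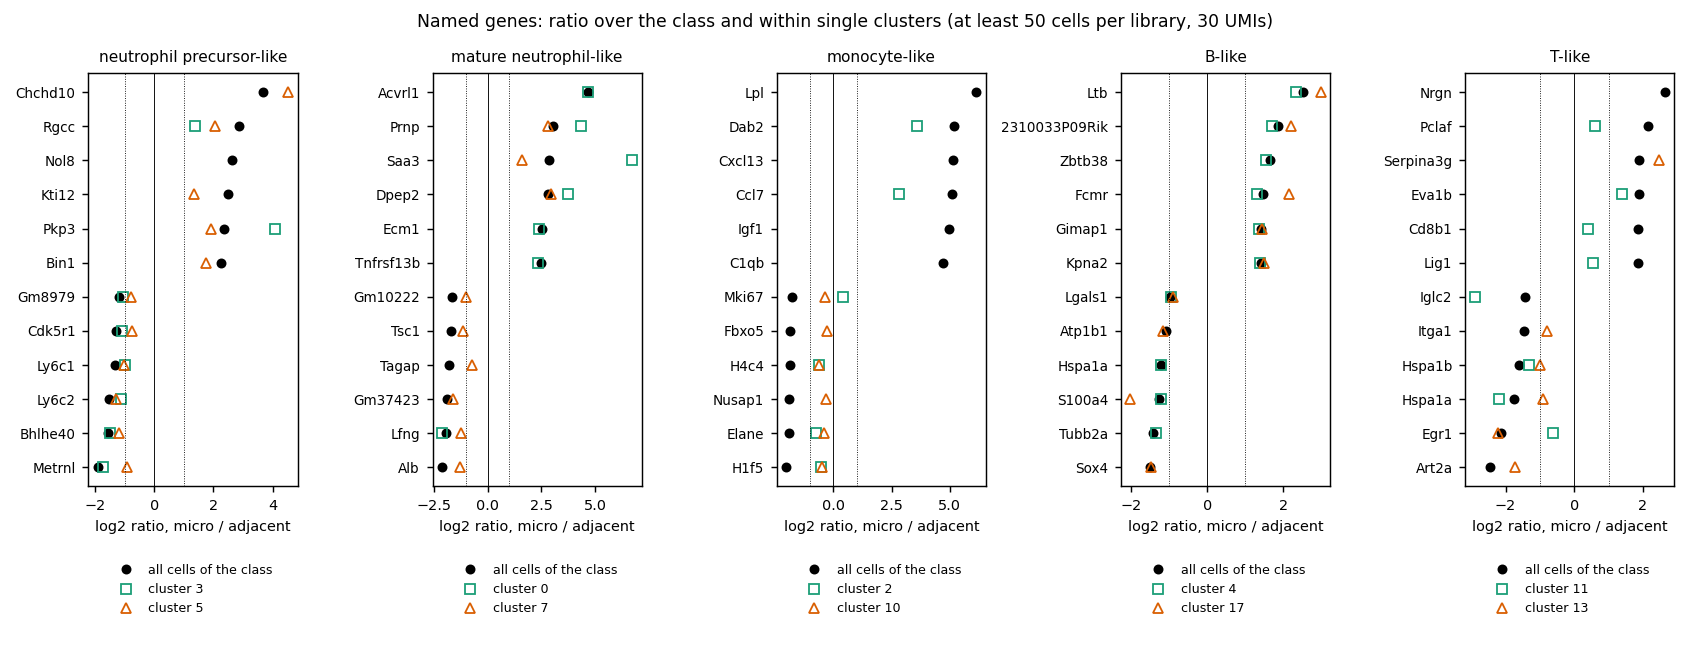
Log2 ratio of the named genes (x axis) over all cells of a class (filled points) and within single clusters with at least 50 cells in each library (open symbols), for genes with at least 30 UMIs there. Saa3 in mature neutrophil-like cells is at 6.72 in cluster 0 and 1.60 in cluster 7, and Elane in monocyte-like cells at -0.76 in cluster 2 and -0.41 in cluster 10.

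B-like cells (259 and 648) differed in few genes, and Ltb stood out. Of 864 genes compared, 23 (2.66%) were at least 2-fold higher and 7 (0.81%) at 0.5 or lower. With the trimmed mean of 0.15 as the centre, the counts were 16 and 10. Ltb encodes lymphotoxin beta, a membrane cytokine that shapes lymphoid tissue (chromosome 17, 35194439 to 35196320). It was at 84.4 CPM in adjacent tissue and 481 CPM in micrometastasis, a ratio of 5.71 (4.82 to 6.80), and 12.0% and 47.4% of thinned cells had a UMI. The shares in mature neutrophil-like cells were 19.4% and 39.9%, so the share with a UMI did not set B-like cells apart. In clusters 4 and 17 its ratios were 5.05 and 7.91. Fcmr, the receptor of IgM (chromosome 1, 130865669 to 130880791), was at 174 and 482 CPM, a ratio of 2.77 (2.45 to 3.15). Gimap1, a GTPase needed for lymphocyte survival, was at 28.9 and 76.7 CPM.

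The gap in Ltb was not particular to B-like cells. It was at 183 and 534 CPM in T-like cells, 131 and 360 CPM in mature neutrophil-like, 14.8 and 55.4 CPM in monocyte-like, and 31.2 and 102 CPM in precursor-like cells. Among 307 genes compared in all 5 classes, it was the 1 gene that was at least 2-fold higher in every class, and none was at 0.5 or lower in every class. This count was made after its values had been seen. A ratio above 1 in all 5 classes was found for 50 of the 307 genes and a ratio below 1 for 8. The matrices of both sites were scaled separately by the authors, and the part of that scaling in a gap shared by all classes was not tested.

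Antigen presentation and immunoglobulin genes of B-like cells differed by less than 2-fold between the sites. None of 8 MHC class II genes was called, with a median log2 ratio of 0.04, and 5 of the 8 had a ratio above 1. H2-Aa was at 4577 and 4688 CPM, and H2-DMb1 at 138 and 83.4 CPM. None of 6 immunoglobulin constant genes was called. Ighm was at 2851 and 3072 CPM, Igkc at 6771 and 7692 CPM, and Iglc1 at 618 and 940 CPM. Of the 11 genes of B cell state none was called over the class, and Cd83, an activation marker, was at 366 and 513 CPM. Single clusters differed in this list. In cluster 17, 3 of 6 members were called higher and none lower, with a median of 0.77. In cluster 4, 2 of 10 were called lower and none higher, with a median of 0.00. Over the class, genes of low ratio included Sox4, a transcription factor of early B cells, at 44.7 and 15.7 CPM with scores capped in 2 and 3 cells. S100a4, a calcium-binding protein, was at 175 and 72.9 CPM. The heat shock gene Hspa1a was at 94.6 and 40.4 CPM, and its reads cannot be told apart with certainty from those of its near-identical copy Hspa1b.

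T-like cells (179 and 429) had higher mitosis genes in micrometastasis, and Egr1 and the heat shock genes Hspa1a and Hspa1b were lower. Of 721 genes compared, 37 (5.13%) were at least 2-fold higher and 20 (2.77%) at 0.5 or lower. All 8 mitosis genes were higher, with a median of 1.46. Mki67 was at 31.6 CPM in adjacent tissue and 82.1 CPM in micrometastasis, a ratio of 2.60 (1.87 to 3.68), and Pclaf was at 30.9 and 139 CPM. Few cells carried these UMIs. In the thinned data 0.559% and 4.43% of cells had one of Mki67, beside 2.7% and 1.7% of B-like cells. For Ube2c, an enzyme of mitotic exit, the shares were 1.68% and 1.63%, below those of B-like cells. The median depth of T-like cells before thinning was 7332 and 4610 UMIs. Within cluster 11, where 4 of these genes could be compared, none was called, with a median of 0.07.

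Cd8b1, a chain of the CD8 co-receptor, was at 68.8 and 251 CPM with scores capped in 3 adjacent tissue cells, and with 5.59% and 17% of thinned cells, beside 0% of B-like cells in both libraries. In cluster 11 it was at 63.0 and 84.1 CPM, and the remaining cluster with Cd8b1 is cluster 16, whose share of the class is given above. Of 13 cytotoxic genes 2 were higher, with a median of 0.46. Gzma was at 238 and 655 CPM and Prf1, the gene of perforin, at 59.0 and 122 CPM. Ifng was at 298 and 295 CPM, a ratio of 0.990 (0.876 to 1.12). Within cluster 11 none of 4 cytotoxic genes was called, with a median of 0.10, and within cluster 13 none of 9, with a median of -0.18. Cluster 16 had 6 adjacent tissue cells, too few for the same comparison. Over the class, the membrane protein genes Tmem176a and Tmem176b were at 28.1 and 92.8 CPM and at 38.6 and 84.2 CPM. Nrgn, a calmodulin-binding protein, was at 6.32 and 41.3 CPM.

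Egr1, an early response transcription factor, was lower in micrometastasis, at 306 and 70.5 CPM, and in cluster 13, led by Xcl1 and Ifng, at 579 and 125 CPM. Art2a was at 247 and 45.1 CPM, but its scores were capped in 9 micrometastasis T-like cells, so its level there is a lower bound and no order of levels was read. The share of cells with an Art2a UMI before thinning, which the cap does not touch, was 25.1% and 9.79%. After thinning it was 17.3% and 4.9%, beside 0% of B-like cells. Of the 26 immediate early and stress genes, 4 were lower and 1 higher, with a median of -0.31. In cluster 13, 5 of 21 were lower and none higher. In cluster 11, which held more micrometastasis T-like cells, none of 19 was called, 11 had a ratio above 1 and the median was 0.17. Fos was at 754.5 and 371 CPM. The heat shock genes Hspa1a and Hspa1b, near-identical copies, were at 151 and 44.7 CPM and at 74.4 and 24.5 CPM. Itga1, an integrin of tissue-resident lymphocytes, was at 68.1 and 24.5 CPM. Checkpoint and activation genes were called in 0 of 13 cases, with a median of -0.22, and Ctla4 was at 202 and 248 CPM. Naive T cell genes were called in 0 of 9 cases, and Lef1 was at 180 and 165 CPM. Trdc, the constant gene of the delta chain, was the 1 measured gene of the gamma-delta list. It was at 75.8 and 32.2 CPM, but its share of thinned cells was 3.91% and 4.43% and its scores were capped in 4 and 16 cells, so no order was read from it.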

How the data were processed

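CD45+ cells were profiled in 6 droplet libraries, 1 per group. The matrices deposited by the authors hold scaled scores: UMIs per 10000 on a log scale, with a per-cell covariate removed and each gene brought to an SD of 1, capped at 10, per site. The submitters' processing notes name Trim Galore 0.4.3, STAR 2.7.7a and GRCm38. The study's methods describe removal of doublets before deposit. A design written for counts was kept, and the scores were turned back into UMI counts: 99.99971% and 99.99986% of values came out whole within 0.05, and 0.144% and 0.160% of detected values were at the cap and are lower bounds. On simulated data the inversion returned 100% of UMIs over 4486 genes, and 4-fold changes were called in 100% of the genes changed over 1993 genes.

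The 4 day 3 libraries were clustered together (scanpy 1.11.5, leidenalg 0.10.2; 30 components, 15 neighbours, resolution 1) on the shared genes. Clusters were named from marker lists and needed 3 markers. No cell was removed for its doublet score, which was over 0.15 in 9.15% of adjacent tissue and 7.15% of micrometastasis cells. UMIs were summed per library, over all cells and over the classes that had 100 cells or more on both sides. Log2 ratios, calls and ratios within single clusters had 0.5 UMI added to each sum, while the other ratios are of the plain CPM, and intervals were computed with scipy 1.17.1 (Python 3.11.15). Genes to name were taken from the 10 of highest and of lowest ratio over the library, and from members of gene lists. In a class they were the 6 of each where its level was at least 25% of that of the library. Not every such gene is printed. Mitochondrial, ribosomal, haemoglobin, variable receptor and Xist genes were left out. Positions are those of the GENCODE annotation of GRCm38. Members and lists were chosen with earlier results of these data known. Alternatives were other scalings, minimum counts, cell filters, thinning to 1500 UMIs and other clusterings.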

Additional observations from a re-analysis of the deposited data

Results flagged for a closer look

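Some named genes had the opposite ratio between the Tim3-KD libraries of the same sites, where the adjacent tissue library had only 542 cells, 35 of them endothelial-like. The difference between the pairs was not tested, since each pair had 1 library per site. Over the whole library the 8 genes carried by endothelial-like cells were higher in micrometastasis in Ctrl and lower in Tim3-KD. Their Tim3-KD ratios of micrometastasis over adjacent tissue were 0.0218 for Adgrf5, 0.0322 for Ptprb, 0.0489 for Cyp4b1, 0.0511 for Meis2, 0.0550 for Oit3, 0.0561 for Aqp1, 0.0782 for Clec4g and 0.0853 for F8. Endothelial-like cells were 6.46% of adjacent tissue and 0.739% of micrometastasis cells in Tim3-KD. Dab2, a gene of Kupffer-like and monocyte-like cells, had a ratio of 0.188, and Kupffer-like cells were 19.6% and 4.96% there. Cdk5r1, with a ratio of 0.478 in Ctrl and 1 capped micrometastasis cell there, had a ratio of 4.00. Mature neutrophil-like and precursor-like cells held 46.5% and 35.7% of its UMIs in Ctrl adjacent tissue. In Tim3-KD, mature neutrophil-like cells were 3.51% of adjacent tissue (19 cells) and 31.8% of micrometastasis cells, and precursor-like cells were 0 and 28.1%.

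In B-like cells (196 and 71 cells in Tim3-KD), Ltb had a ratio of 0.152 (0.096 to 0.229), from 462 CPM in adjacent tissue to 70.2 CPM in micrometastasis. Fcmr had a ratio of 0.164 and Gimap1 one of 0.314. Hspa1a, lower in Ctrl micrometastasis, had a ratio of 3.73 in Tim3-KD. In T-like cells (127 and 363), Iglc2, an immunoglobulin light chain gene, was at 16.1 and 45.7 CPM, a ratio of 2.84 against 0.367 in Ctrl, and B-like cells should be its main source.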

How the results depend on the processing

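No paired analysis was possible because each group had 1 library and no result comes from a test. Of the genes named for the highest or lowest ratios, none past 2-fold changed direction under an alternative, and 486 of 540 values were past 2-fold. Of the 284 genes higher over the whole library, 25 changed direction with the class mix weighted, 8 of them in a gene list. Their log2 ratios became -0.34 for C4b, -0.16 for Cd5l, -0.19 for Clec4f, -0.04 for Cxcl13, -0.50 for Folr2, -0.10 for Iigp1, -0.63 for Stab2 and -0.25 for Timd4. The number of genes lower over the whole library was 17 with a mean over cells, 16 with the trimmed mean as the centre, 7 without cells of high doublet score, 14 in thinned cells and 15 with the class mix weighted, where 87 were higher. In precursor-like cells the trimmed mean gave 109 higher and 57 lower, clustering of the Ctrl libraries alone 93 and 8, a minimum of 30 UMIs 31 lower and thinning 102 lower. In mature neutrophil-like cells the trimmed mean gave 42 lower, a minimum of 30 UMIs 87 higher, and leaving out cluster 7, an alternative added after seeing the data like the class mix and cluster 6, gave 122 and 12. In monocyte-like cells the trimmed mean gave 177 higher, thinning 136 lower, and leaving out cluster 6 gave 109 and 22. In B-like cells a minimum of 30 UMIs gave 68 and 45, thinning 55 and 19, and removal of cells of high doublet score 16 lower. In T-like cells a minimum of 30 UMIs gave 93 and 50, and thinning 38 lower. Differences in share, in points, became 5.41 for Kupffer-like, -8.25 for B-like, -6.31 for T-like, -2.94 for progenitor-like and 2.30 for endothelial-like cells among cells other than neutrophils. Without cells under 3000 UMIs they were -4.14 for B-like, 0.587 for NK or ILC1-like and 0.896 for endothelial-like cells. Without cluster 6 the monocyte-like difference was -1.92, and without cluster 7 the mature neutrophil-like difference 14.8, both in the opposite direction and added after seeing the data. Without cells of high doublet score the dendritic cell-like difference was 2.99, and with clustering of the Ctrl libraries alone the progenitor-like difference was 0, since no cluster took that name. The cause of the shifts under scaling and thinning was not tested. Genes outside both matrices and genes under 100 UMIs were out of reach.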
